A study of Mus musculus with 14 samples.

Results

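The miR-221 and miR-222 cluster was represented by 4 mature mouse (mmu) miRNA names, mmu-miR-221-3p, mmu-miR-221-5p, mmu-miR-222-3p and mmu-miR-222-5p, written below without the species prefix. They were taken by exact name from a table of 1695 mouse mature miRNA names, and all 4 were present. The table counts small RNA in small extracellular vesicles, membrane particles shed by cells, that were collected from primary neutrophils. The neutrophils were Ly6G-positive bone marrow cells of wild-type female BALB/c mice. They were kept for 48 h with DMSO, the solvent (7 libraries), or with 10 µM 27-hydroxycholesterol (27HC), a cholesterol metabolite (7 libraries). The labels name no allele or transgene. The labels number the libraries 1 to 7 in each group. Their descriptions also give each library a pair of consecutive numbers, the same pairs in both groups. The labels do not state what the pairs mark, or whether each library came from its own mouse or culture. The p-values therefore measure the spread between these libraries, which may be partly technical. The comparison asks how 27HC changes the RNA that neutrophil vesicles carry, in a study of their effect on breast cancer cells.

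A miRNA gene is transcribed as a hairpin whose arms, 5p and 3p, are cut out. One arm is usually kept in an Argonaute protein, where bases 2 to 8, the seed, pair with messenger RNAs and repress them. In this cluster the 3p arms are the ones known as guides. They repress Kit, the receptor for stem cell factor on blood progenitors, and Cdkn1b, which encodes the cell cycle inhibitor p27. Their level falls as red cell precursors mature. In breast cancer cells they are known to repress the estrogen receptor gene Esr1 and to promote epithelial-mesenchymal transition, the loss of epithelial character that accompanies invasion. 27HC itself is a ligand of the estrogen receptor and of the LXR receptors.

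The mature sequences show what the 3p arms share. They are given 5′ to 3′ from RefSeq, with the seed in capitals. For miR-222-5p only the name is given.
miR-221-3p: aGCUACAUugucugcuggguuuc
miR-222-3p: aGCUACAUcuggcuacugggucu
miR-221-5p: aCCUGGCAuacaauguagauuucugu
Both 3p arms are 23 bases long. They are identical over their first 8 bases, so they have the same seed, and differ at 12 of the 23 positions when set side by side without gaps. The 5p arm of miR-221 has 26 bases and another seed.

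A search of the sequence table for the same seeds among the counted names found 1 further name, miR-1928, which shares its first 10 bases with miR-221-3p.
miR-1928: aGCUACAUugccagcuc
This name held 1 count in 1 library. Among the counted names that have a sequence there, vesicle counts with the seed GCUACAU were therefore almost all under the cluster's own names. These held 28419 counts for miR-221-3p and 1120 for miR-222-3p over the 14 libraries. No other counted name with a sequence there had the seed of miR-221-5p. Counted names without a sequence there were not searched.

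The hairpins lie next to each other on the X chromosome. In RefSeq's annotation of GRCm38.p6, Mir221 is at chrX:19146294-19146388 and Mir222 at chrX:19146893-19146971, both on the minus strand, with 504 bases between them. They are shown because both mature names of a hairpin are cut from the same precursor. Capitals mark miR-221-5p and then miR-221-3p in the first, and miR-222-3p in the second.
Mir221: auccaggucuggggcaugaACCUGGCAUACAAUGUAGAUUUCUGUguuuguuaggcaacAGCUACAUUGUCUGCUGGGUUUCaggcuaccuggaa
Mir222: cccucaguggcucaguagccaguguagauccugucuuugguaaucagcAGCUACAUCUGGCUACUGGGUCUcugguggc
The GENCODE M21 annotation of GRCm38 has 0 other genes over the span of the hairpins, which are thus intergenic there and in no exon, intron or UTR of another gene. The nearest gene on the side from which they are transcribed is Gm14636, a non-coding transcript on the same strand, 10009 bases away. The submitters' processing notes name GRCm39, so the positions are those of this annotation, and the table of counts gives none.

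The seed pairs with the letters ATGTAGC in a messenger RNA. In GENCODE M21, the longest 3′ UTR of Kit (2177 bases) holds 2 matches and that of Cdkn1b (3439 bases) holds 1, searched on the transcribed strand only. Each is shown with 15 bases before it and 1 after it, with the match in capitals.
Kit, bases 447 to 453 of the UTR: aatgatgggagatatATGTAGCa
Kit, bases 1978 to 1984 of the UTR: tttgtaaatattgaaATGTAGCa
Cdkn1b, bases 2357 to 2363 of the UTR: ctctaaaagcattggATGTAGCa
Of 20997 genes with a 3′ UTR, 9.46% held these letters. Among UTRs from 0.8 to 1.25 times as long as that of Kit the share was 15.3%, and among those of the length of Cdkn1b it was 23.0%. A match describes the letters and shows no binding, and no messenger RNA was measured here.

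Libraries held from 112914 to 871189 counts. Levels are given in counts per 1000000 counts (CPM) after TMM scaling, which adjusts library totals for differences in composition. miR-223-3p, the neutrophil miRNA, was the second most abundant name after miR-16-5p. The summed level of 4 myeloid names (both arms of miR-223 and of miR-142a) spanned 82663 to 215029 CPM with DMSO and 112201 to 148032 CPM with 27HC. The sums of 4 erythroid names ran from 501.4 to 1118 CPM over all libraries, of 5 stromal and muscle names from 457 to 1281 CPM, of 2 endothelial names from 516 to 1122 CPM, of the lymphoid miR-150-5p from 73.2 to 373 CPM and of the liver miR-122-5p from 1881 to 4552 CPM. Of these 17 names 1, miR-144-5p, was at 0 in any library, in 2 of them. Over all 239 tested names, 12.6% were called, and 8.79% were called lower. Of the 17 names, miR-451a, miR-144-3p, miR-144-5p, miR-145a-5p, miR-199a-5p and miR-214-3p had too few counts to be tested. Among the rest, 3 were called, all lower with 27HC. They were miR-142a-3p (10831 ± 4089 to 3742 ± 662 CPM, edgeR adjusted p 3.55e-05), miR-142a-5p (2394 ± 924 to 1440.3 ± 176 CPM, edgeR adjusted p 0.0223) and miR-150-5p (252 ± 87.8 to 129 ± 29.4 CPM, edgeR adjusted p 0.0134), each as mean ± SD of 7 libraries. Their part in the values of the cluster was not tested. In earlier results of these data, libraries numbered 1 to 4 and 5 to 7 stood apart in both groups. The labels do not say what the numbers mark, and the division comes from the counts themselves, so a difference in level between the sets is described without a test. The response to 27HC was also fitted within each set, and those p-values do not cover how the sets were found. The sets also differed in depth, with 229324 to 871189 counts in replicates 1 to 4 and 112914 to 252014 in replicates 5 to 7.

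The 4 names spanned a wide range of levels. miR-221-3p had 7795 ± 1260.2 CPM over all 14 libraries (SD) and ranked 19th of the 1695 names. miR-222-3p had 302 ± 61.3 CPM (SD, n = 14) and ranked 119th. miR-221-5p had 36 counts in all, between 0 and 9 in a library, and miR-222-5p had 2 counts in all. The order miR-221-3p, miR-222-3p, miR-221-5p, miR-222-5p held in every library, with a tie at 0 between the 5p names in DMSO replicate 5 and in 27HC replicates 6 and 7. The lowest library for miR-221-3p (5827 CPM) was far above the highest for miR-222-3p (418 CPM), and likewise for miR-222-3p (210.2 CPM) and miR-221-5p (23.9 CPM). Between the 5p names the ranges overlapped.

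Both 3p names passed the filter on low counts, and both 5p names did not. In the comparison of all libraries neither 3p name was called, at an adjusted p under 0.05 in edgeR's quasi-likelihood test. Of all 239 tested names, 12.6% were called, 9 higher and 21 lower (7 higher and 30 lower with upper quartile scaling). Both 3p names had a positive log2 fold change, that is a higher fitted level with 27HC, while the median over all tested names was 0.010.

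**Figure D1:**
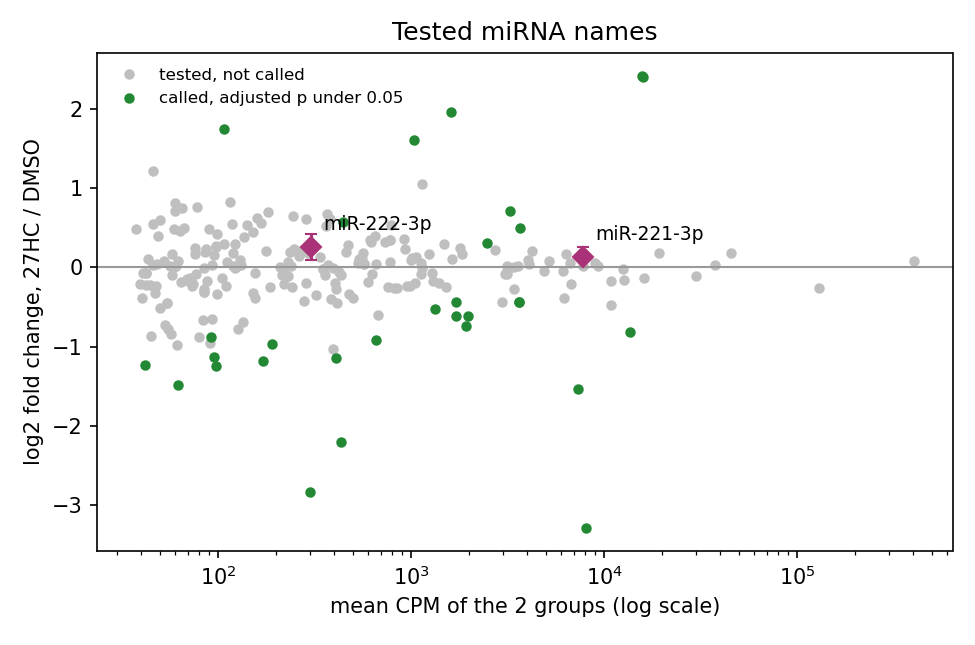
Each point is 1 of the 239 tested miRNA names, with the mean CPM of the 2 groups on a log axis and the log2 fold change of 27HC over DMSO. Diamonds with SE bars mark miR-221-3p (0.13) and miR-222-3p (0.26), which lie among the names not called (grey), while the 30 called names are green.

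miR-221-3p, the main guide of the cluster, ran from 5827 to 10762 CPM in DMSO libraries, with a median of 7053 CPM. In 27HC libraries it ran from 7605 to 8989 CPM, with a median of 8249 CPM. The groups overlapped, where 5.44% of tested names had groups that did not. The 27HC values all fell inside the range of the DMSO values and above the DMSO median, and 4 of the 7 DMSO libraries lay under the lowest 27HC library. Group means were 7443 ± 1697 CPM and 8147 ± 521 CPM (SD, n = 7 each), so the DMSO libraries were spread 3.26 times as widely, a ratio that was not tested. edgeR put the log2 fold change at 0.13 (SE 0.12), unadjusted p 0.296 and adjusted p 0.5998. As a share of all counts the name took 0.770 ± 0.266% in DMSO and 0.810 ± 0.0836% in 27HC libraries (SD, n = 7).

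**Figure D2:**
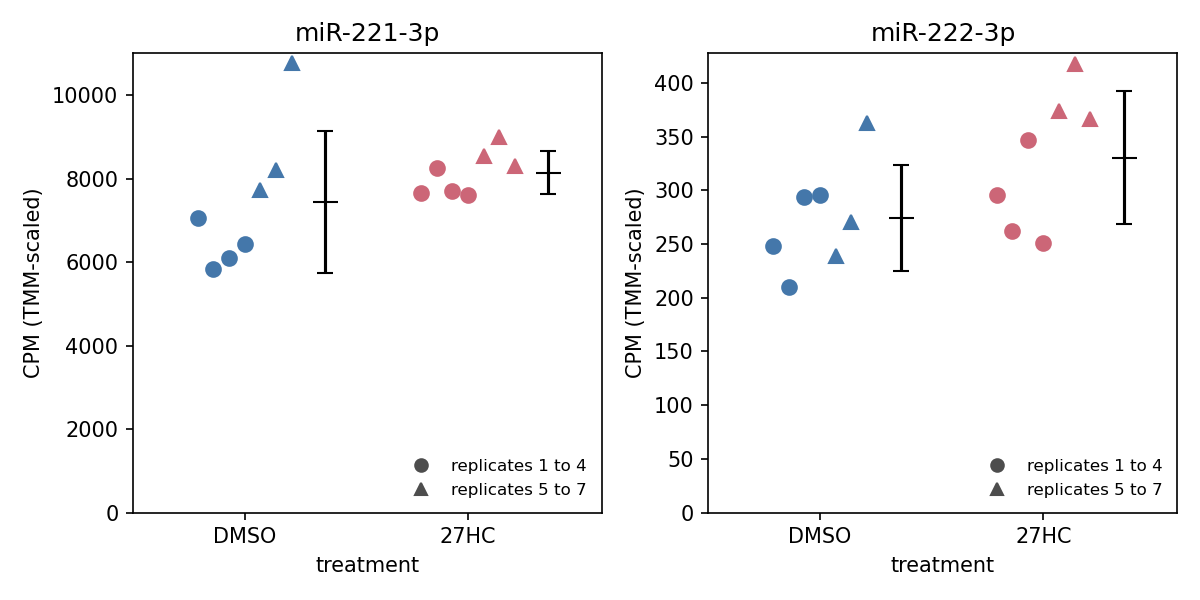
TMM-scaled CPM of miR-221-3p (left) and miR-222-3p (right) in every library, by treatment, with circles for replicates 1 to 4 and triangles for replicates 5 to 7. Black bars are the mean ± SD of 7 libraries. For miR-221-3p the highest point is DMSO replicate 7 (10762 CPM), and the 4 DMSO circles lie under all 27HC points.

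One library held much of that spread. DMSO replicate 7 was the highest of all 14 libraries for miR-221-3p, at 10762 CPM against 8214 CPM in the next DMSO library. It also had the lowest summed level of the 4 myeloid names of any library (82663 CPM, against 112201 CPM in the next lowest), and the highest level of miR-122-5p (4552 CPM). The part of these differences in the result was not tested. Without this library the log2 fold change of miR-221-3p was 0.30 (SE 0.10); the edgeR adjusted p was 0.0603.

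In replicates 1 to 4, miR-221-3p rose with 27HC. The DMSO libraries had 7053, 5827, 6098 and 6430 CPM, and the 27HC libraries 7654, 8249, 7701 and 7605 CPM. These groups did not overlap, as in 21.9% of the 242 names tested there. edgeR put the log2 fold change at 0.36 (SE 0.087, adjusted p 0.0125), in a fit that called 17.4% of its names. With RLE scaling the call held (0.34, edgeR adjusted p 0.0177). It was lost with upper quartile scaling (0.21, edgeR adjusted p 0.1297), with unscaled library totals (0.35, edgeR adjusted p 0.0610) and with no filter on low counts (0.18, edgeR adjusted p 0.597). It was also lost without DMSO replicate 2 (0.27, edgeR adjusted p 0.0962) and without DMSO replicate 3 (0.28, edgeR adjusted p 0.0746), and held without each of the other 6 libraries.

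In replicates 5 to 7 no rise was seen. The DMSO libraries had 7719, 8214 and 10762 CPM and the 27HC libraries 8537, 8989 and 8293 CPM, so that the 27HC values lay between the second and the highest DMSO value. edgeR put the log2 fold change at −0.035 (SE 0.14, adjusted p 0.9399), and without DMSO replicate 7 it was 0.12 (SE 0.098, edgeR adjusted p 0.841). In this fit 6.06% of 198 names were called. In edgeR's interaction test, the response of replicates 5 to 7 minus that of replicates 1 to 4 was −0.35 (SE 0.16), unadjusted p 0.0448 and adjusted p 0.476. That test called 0 of 239 names, with 24 at an unadjusted p under 0.05. With a term for the set, which keeps all libraries, edgeR gave 0.15 (SE 0.088, adjusted p 0.298, 16.3% of names called). Leaving out each library in turn, an alternative added after seeing the data, moved this value between 0.101 and 0.29. The name was called in 1 of these 14 fits, the one without DMSO replicate 7 (0.29, SE 0.076, edgeR adjusted p 0.0142, 20.4% of names called).

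**Figure D3:**
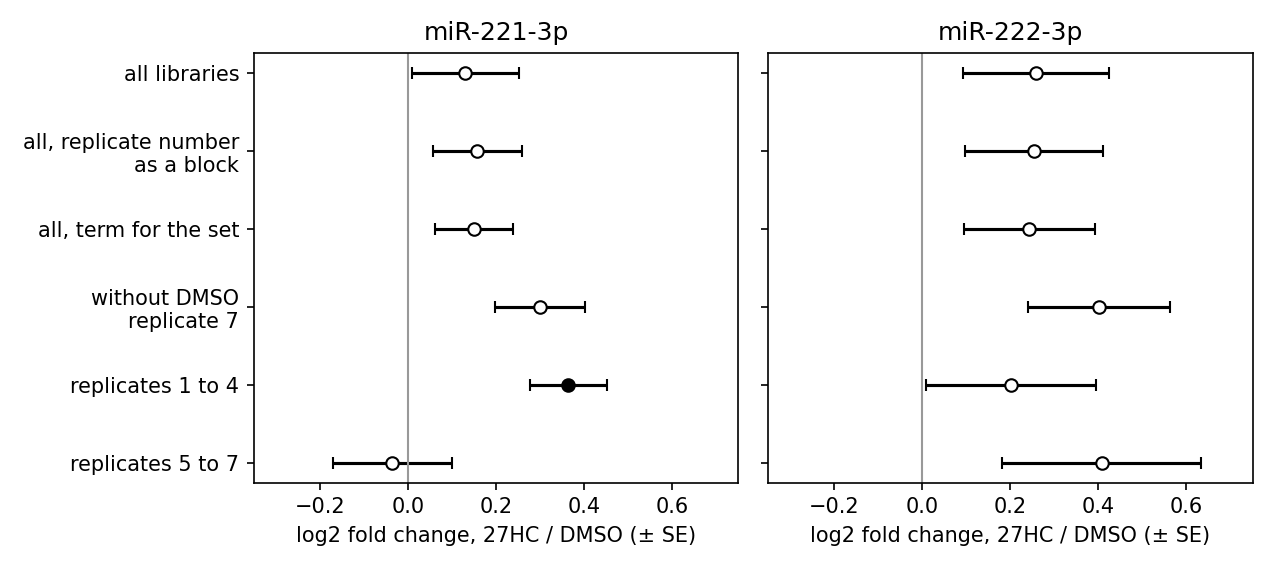
Log2 fold change of 27HC over DMSO (± SE) for miR-221-3p (left) and miR-222-3p (right) in 6 edgeR fits, with a filled circle where the adjusted p was under 0.05. The 1 filled circle is miR-221-3p in replicates 1 to 4 (0.36), and its value in replicates 5 to 7 is −0.035.

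miR-222-3p, the guide of the neighbouring hairpin with the same seed, ran from 210.2 to 363 CPM in DMSO libraries, with a median of 271 CPM. In 27HC libraries it ran from 251 to 418 CPM, with a median of 347 CPM. The groups overlapped, with 3 of the 7 treated libraries higher than every DMSO library and 3 DMSO libraries under the lowest 27HC library. These values rest on 30 to 217 counts per library. Group means were 274 ± 49.5 CPM and 331 ± 62.1 CPM (SD, n = 7 each). edgeR put the log2 fold change at 0.26 (SE 0.17), unadjusted p 0.1405 and adjusted p 0.404. Without DMSO replicate 7, which had the highest DMSO value of this name too, it was 0.40 (SE 0.16, edgeR adjusted p 0.121).

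Within the sets miR-222-3p was not called in either. In replicates 1 to 4 the DMSO libraries had 249, 210.2, 294 and 296 CPM and the 27HC libraries 296, 262, 347 and 251 CPM, which overlapped. In replicates 5 to 7 the DMSO libraries had 239, 271 and 363 CPM and the 27HC libraries 374, 418 and 366 CPM, which did not overlap, as in 21.7% of the names tested in that set. edgeR gave log2 fold changes of 0.20 (SE 0.19, adjusted p 0.506) in replicates 1 to 4 and 0.41 (SE 0.23, adjusted p 0.486) in replicates 5 to 7. The interaction was 0.26 (SE 0.30); the edgeR adjusted p was 0.794. Without DMSO replicate 7, the value in replicates 5 to 7 was 0.60 (SE 0.23, edgeR adjusted p 0.349).

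The ratio of both 3p names within a library does not depend on how libraries are scaled. In DMSO libraries there were 28.4 counts of miR-221-3p for each count of miR-222-3p (median, from 20.8 to 32.3), and in 27HC libraries 22.8 (from 21.5 to 31.4). The log2 ratio of miR-222-3p to miR-221-3p, with 0.5 added to each count, was −4.74 ± 0.24 in DMSO and −4.63 ± 0.23 in 27HC libraries (SD, n = 7). These means lay 0.11 apart, less than the spread, with an exact two-sided permutation p of 0.394 over 3432 splits, and also 0.394 after adjustment over 4 tests of this ratio, namely this one, 1 in each set and 1 between the sets.

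Within the sets the difference in the ratio had opposite signs, and neither passed its test. In replicates 1 to 4 the log2 ratios were −4.82, −4.78, −4.37 and −4.44 in DMSO and −4.69, −4.96, −4.46 and −4.91 in 27HC libraries, a difference of −0.15 (exact permutation p 0.343, adjusted 0.394). In replicates 5 to 7 they were −4.99, −4.91 and −4.88 in DMSO and −4.50, −4.42 and −4.49 in 27HC libraries. There the groups did not overlap, and their means lay 0.46 apart. The exact permutation p was 0.1 (adjusted 0.2), the smallest that 3 against 3 libraries can give. The differences in the sets lay 0.62 apart, which is given as a description because the sets came from the counts and were compared after these values were seen. Counting error alone gives each log2 ratio an SE of 0.1003 to 0.267, which exceeds the SD of 0.057 and 0.044 among the 3 DMSO and the 3 27HC libraries of replicates 5 to 7.

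**Figure D4:**
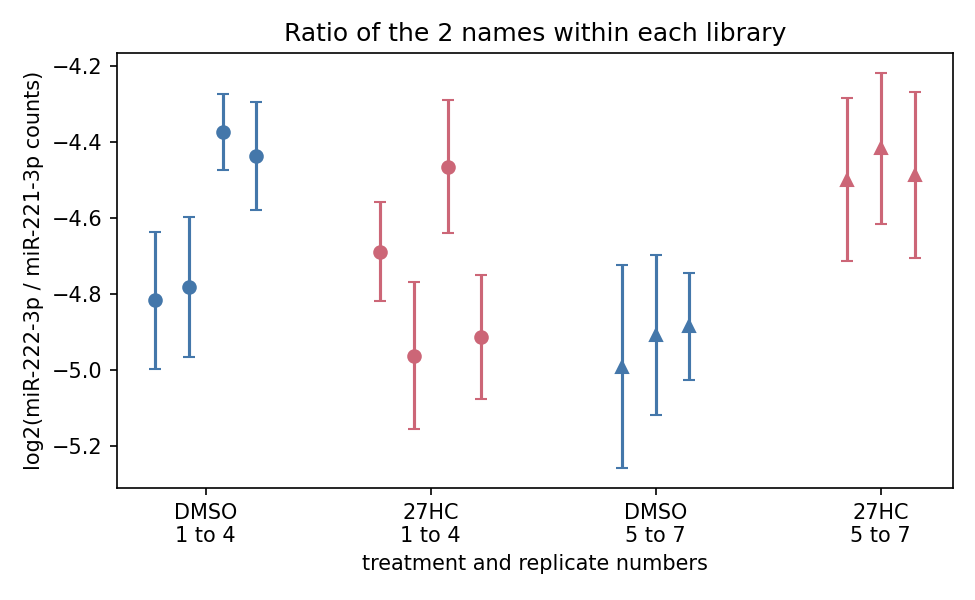
Log2 ratio of miR-222-3p to miR-221-3p counts in each library, by treatment and set of replicate numbers, with bars for the SE from counting error alone. In replicates 5 to 7 the 27HC points (−4.50 to −4.42) lie above the DMSO points (−4.99 to −4.88), and in replicates 1 to 4 the treatments overlap.

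The 5p arms were scarce next to the 3p arms of the same hairpins. miR-221-5p had 18 counts over the DMSO libraries and 18 over the 27HC libraries, with 1 and 2 libraries at 0. Per library the counts were 4, 1, 9, 1, 0, 1 and 2 in DMSO and 4, 2, 2, 7, 3, 0 and 0 in 27HC, in the order of replicate numbers. Per 1000000 counts of the pooled group this was 7.59 (95% exact Poisson interval 4.496 to 11.99) in DMSO and 11.6 (6.87 to 18.3) in 27HC, intervals that overlap and cover counting error only. Of all counts of the Mir221 hairpin, the 5p arm made up 0.112% in DMSO (95% Clopper-Pearson interval 0.0662 to 0.176%) and 0.146% in 27HC (0.0866 to 0.231%). A change in arm use was not detectable at this depth.

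miR-222-5p had 1 count in DMSO replicate 1 and 1 in 27HC replicate 2, and 0 in the other 12 libraries. Over the 640 and 480 counts of miR-222-3p, the 5p arm was 0.156% of the hairpin's counts in DMSO (95% Clopper-Pearson interval 0.0039 to 0.866%) and 0.208% in 27HC (0.0053 to 1.15%). In both hairpins the 3p arm thus held more than 99% of the counts of either group.

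The names whose log2 CPM followed miR-221-3p most closely over the 14 libraries, by Pearson's r, were miR-320-3p (0.94), miR-296-3p (0.91), miR-423-5p (0.90), let-7b-5p (0.87) and miR-1198-5p (0.87). Within replicates 1 to 4 (8 libraries) their r ran from 0.65 to 0.96 and within replicates 5 to 7 (6 libraries) from 0.75 to 0.92. None of these 5 was called between treatments in edgeR's test, where their unadjusted p ran from 0.227 to 0.864. miR-222-3p, the cluster partner, ranked 33rd among the 238 other tested names, with an r of 0.62, and 0.35 and 0.56 within the sets. It had only 30 to 217 counts per library, so counting error enters this r. How far that moves the r or the rank was not tested, so they do not show whether the cluster partners vary together.

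For miR-222-3p the closest names were miR-99a-5p (0.69), let-7e-5p (0.64), miR-221-3p (0.62), miR-27b-3p (0.595) and miR-199b-3p (0.59). miR-99a-5p and let-7e-5p were low, with means of 84.4 and 42.3 CPM over the 14 libraries. The r of miR-27b-3p was 0.72 in replicates 1 to 4 and 0.22 in replicates 5 to 7. The r of miR-199b-3p was 0.86 in replicates 1 to 4 and −0.24 in replicates 5 to 7, so its place rests on the first set. Its level and fold change equal those of miR-199a-3p in the table. All these values describe libraries that share their scaling factors, depth and the division into sets.

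Other miRNAs known to repress Esr1 were listed as miR-18a-5p, miR-18b-5p, miR-19a-3p, miR-19b-3p, miR-22-3p, miR-193b-3p and miR-206-3p. Of these 7 names 5 were tested, 0 were called higher and 0 lower, with 0 at an unadjusted edgeR p under 0.05. Of all 239 tested names, 3.77% were called higher, 8.79% lower, and 53 had an unadjusted p under 0.05. Their median log2 fold change was −0.24, against 0.010 over all tested names. miR-19b-3p averaged 3713 ± 819 CPM with DMSO and 3073 ± 524 CPM with 27HC (SD, n = 7), and miR-19a-3p 829.3 ± 89.9 and 697 ± 167 CPM. Their log2 fold changes were −0.27 (SE 0.15) and −0.24 (SE 0.15), while miR-22-3p had 0.23 (SE 0.23), miR-18a-5p 0.17 (SE 0.35) and miR-206-3p −0.69 (SE 1.09).

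A further list held 6 other miRNAs known to promote epithelial-mesenchymal transition or invasion in breast cancer, all of them tested. Of these, 0 were called higher and 2 lower, against the 3.77% and 8.79% of all tested names given above. miR-103-3p, which represses Dicer, fell from 2372 ± 549.6 to 1554 ± 234 CPM (SD, n = 7), and edgeR's log2 value for it was −0.61 (SE 0.14; adjusted p 0.00906). miR-155-5p, an inflammatory miRNA of activated leukocytes, fell from 90.7 ± 43.7 to 33.8 ± 22.9 CPM, where edgeR's log2 value was −1.48 (SE 0.40; adjusted p 0.0216). miR-21a-5p, the most abundant name of the list, had 12566 ± 1064 and 12401 ± 1103 CPM and a log2 fold change of −0.0196 (SE 0.081), and miR-107-3p had −0.0057 (SE 0.11). miR-9-5p had 190.5 ± 113 and 295 ± 132 CPM, for which edgeR gave 0.65 (SE 0.38; adjusted p 0.347), and miR-10b-5p had −0.21 (SE 0.29). The list's median was −0.12.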

How the data were processed

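Small RNA libraries had been made with the QIAseq miRNA kit, per the labels' protocols. The authors deposited raw counts, 1 whole number for each mature name in each library. The submitters' processing notes name GRCm39 (mm39), R 4.1.2, edgeR and limma. The aligner, the rule for reads that match several names and the use of molecular identifiers are not given in the sources used here, so counts may be of reads or of molecules. All 1695 names and 14 libraries were matched, and 0 columns were left unmatched.

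27HC was compared with DMSO in edgeR 4.0.16 (quasi-likelihood F-test, run under R 4.3.3), with treatment as the only term, TMM scaling and filterByExpr (minimum count 10, minimum total 15). This kept 239 names with 99.4% of all counts. P-values were adjusted by Benjamini-Hochberg over all names tested, and calls had an adjusted p under 0.05. SEs are the fold change divided by the root of F. Simulated counts for this comparison had 200 of 1695 names changed 4-fold. Of the 31 changed names among 237 tested, 29 were called, and 1 unchanged name was called. Only 4-fold changes were simulated, so the simulation does not show how often changes as small as those fitted for the cluster would be called. In 42 within-group pairs of libraries counts differed beyond sampling noise (lowest chi-square per degree of freedom 5.57).

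Ratios used exact permutation tests (scipy 1.17.1). A count of 0 allows up to 3 counts, 4.06 CPM in the deepest library and 24.4 CPM in the library with the highest such limit. Sequences are RefSeq's (GRCm38.p6): 3 of the 4 names matched. Named besides the 4 members were names sharing a seed, called and most abundant names of the lists, 5 names most like each 3p name, and the most abundant names. The members and lists were chosen with earlier results of these data known. Alternatives covered scaling, filter, tool (DESeq2 1.42.0, limma-voom from limma 3.58.1), covariates, replicate block, sets of replicates and each library left out. Other settings within the sets, the interaction, the comparison of the ratio between the sets, and the set term without each library were chosen after seeing the data.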

Additional observations from a re-analysis of the deposited data

Results flagged for a closer look

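The 27HC minus DMSO difference in the log2 ratio of miR-222-3p to miR-221-3p was 0.62 higher in replicates 5 to 7 than in replicates 1 to 4. It is listed because permuting the set labels within each treatment gave an exact p of 0.0106 (0.0424 once adjusted over 4 tests). That comparison was added after the values were seen, on sets drawn from the counts, and its p covers neither choice, so it does not show that the response differed. Neither set passed its own test (exact permutation p 0.343 and 0.1, adjusted 0.394 and 0.2). Replicates 5 to 7 could not have passed, because 0.1 is the smallest exact permutation p that 3 against 3 libraries can give. Leaving out each library in turn gave 0.54 to 0.71, with exact permutation p-values from 0.0043 to 0.0171. The sets also differed in depth. No library stood far from its group in any of 8 groups of 7 examined, over the CPM of 3 names and the ratio. DMSO replicate 7 came nearest for miR-221-3p, with a gap to the next library of 0.516 of the group's range against a limit of 0.568.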

How the results depend on the processing

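Over all libraries, miR-221-3p kept its sign and was not called under the 3 other scalings, both other filters, DESeq2, limma-voom and each covariate. With upper quartile scaling its log2 fold change was 0.042 (edgeR adjusted p 0.918), and with the log2 library total as a covariate 0.064. The name also kept its sign and was not called in each of the 14 fits without 1 library (log2 fold change 0.065 to 0.2997). It was 0.36 and called in replicates 1 to 4 (0.34 with RLE scaling, and 0.27 to 0.39 without each library, called in 6 of 8, among them 0.37 without DMSO replicate 4 or 27HC replicate 1 and 0.33 without 27HC replicate 2 or 3). In replicates 5 to 7 it was −0.035 (−0.16 to 0.12 without each library, among them −0.12 without DMSO replicate 5 or 27HC replicate 6, −0.024 without 27HC replicate 5 and −0.013 without 27HC replicate 7), and with a term for the set it was 0.101 to 0.29 without each library, called only without DMSO replicate 7 (0.29). miR-222-3p stayed positive and uncalled in all 57 alternative fits. Its log2 fold change ran from 0.0041 (replicates 1 to 4, no filter on low counts) to 0.60 (replicates 5 to 7 without DMSO replicate 7). In the fits of all libraries without 1 it ran from 0.18 to 0.40. It had no value with a mean count of at least 100. The number of names called was 30, 12 in replicates 5 to 7, and 21 to 34 without each library. The 27HC minus DMSO difference in the log2 ratio of miR-222-3p to miR-221-3p was −0.15 in replicates 1 to 4 and 0.46 in replicates 5 to 7. This difference was 0.11 with a prior count of 2, and 0.068 to 0.17 without each library. The reasons for these changes were not tested.

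With the replicate number as a block, the log2 fold changes were 0.16 for miR-221-3p (edgeR adjusted p 0.359) and 0.25 for miR-222-3p (edgeR adjusted p 0.348). In that fit 37 names were called. With the same block, the log2 ratio of miR-222-3p to miR-221-3p differed by 0.11 between treatments (exact permutation p 0.484). Deviations of same-numbered libraries from their treatment means had correlations of 0.069 to 0.60 over the tested names. With the means taken within each set as well, these correlations ran from −0.11 to 0.29. Of 7 DMSO libraries, 3 were closest to the 27HC library of their number, so the numbers were not taken as pairs. For the arm ratios no paired analysis was possible because they were computed from summed counts and come from no test. The summing was chosen because several libraries had 0 counts of a 5p arm. Fitted with no filter on low counts, edgeR put miR-221-5p at 0.49 on the log2 scale (SE 0.81; adjusted p 0.8301). The log2 ratio of the 3p to the 5p arm differed by −0.39 for Mir221 (−0.88 to −0.019 without each library), and for Mir222 it took either sign (−1.84 to 0.99). Depth limits miR-222-3p, with 30 counts in 1 library, and both 5p names.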
